A study of Mus musculus with 2 samples.

Results

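The CpG sites of IAPEY-family long terminal repeats (LTRs) were examined in 1 sperm library and 1 tail library of the mouse. Members were LTRs, solo or flanking an element, whose repeat name begins with IAPEY in the study's list of IAP sequences, on the autosomes, with at least 20 methylation calls in at least 1 library. A call is a read base that reports 1 cytosine of a CpG as methylated or unmethylated. Of 1042 LTR rows used, which lie on chromosomes 1 and 10, 249 were of the IAPEY family and 91 were members, with 84 on chromosome 1 and 7 on chromosome 10. Another 68 IAPEY-family LTRs had fewer than 20 calls and 90 had none. The 91 members held 456 covered CpG positions of 1485057 in both files, where the cytosines of the 2 DNA strands count as separate positions. Of these, 399 were covered in sperm and 388 in tail.

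Sperm DNA and tail DNA came from the same adult male C57BL/6J mouse, without treatment or mutation. Bisulfite, which converts unmethylated cytosine so that it is read as thymine, was applied to the DNA, and a first strand was made with a random primer that carries a tag. IAP-containing fragments were then enriched by PCR with a primer to that tag and either IAP-BS1 or IAP-BS2 (a method named TEPBAT). There was 1 library per tissue and so no replicate library. In other mice, the paper examined several LTR loci by bisulfite-PCR, among them an IAPEY LTR. It reports largely conserved levels, except at an IAPLTR2 locus in tail. The tests below set 1 library against the other and say nothing of how tissues of other mice differ. Tail is a mixture of cell types, and a level is an average over the cells of each sample. Neither LTR copies nor positions within an LTR serve as replicates. The PCR used no molecular identifiers, so reads may be copies of 1 molecule and intervals cover counting error only.

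IAP (intracisternal A particle) elements are endogenous retroviruses of the mouse whose particles stay within the cell, and they copy themselves through RNA. Each full element is framed by a pair of LTRs, identical at insertion, of which the 5′ LTR holds the promoter that starts transcription and the 3′ LTR the signal that ends it. A solo LTR is what remains when the pair recombines and the internal sequence is lost. IAP LTRs are known for dense CpG methylation in somatic cells and for keeping part of it when most of the genome is demethylated in germ cells and early embryos. The IAPEY family takes its name from copies on the Y chromosome, which are not among the autosomal LTRs described here.

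The primers decide which part of an LTR is read, so they are shown first, with sites that IAP-BS2 meets. IAP-BS2 points towards the 3′ end of the LTR. The stretch between the site and the end of the LTR is called the window below.
IAP-BS2: ggtttttgaagatgtaagtaataaagtttt
IAPEY site, chr1:112440193-112440222, minus strand: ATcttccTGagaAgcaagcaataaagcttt
IAPEY2 site, chr1:148098001-148098030, plus strand: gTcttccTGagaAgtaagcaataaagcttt
IAPLTR1a site, chr10:9851697-9851726, plus strand: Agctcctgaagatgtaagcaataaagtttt
Sites are from GRCm38 (mm10), 5′ to 3′ on the LTR's strand, and capitals mark mismatches to IAP-BS2 with C and T counted alike, since bisulfite makes them alike. The IAPEY site had 5 mismatches and the IAPEY2 site 4, all towards the 5′ end of the primer, while the bases under its 3′ end matched. The IAPLTR1a site, from a subfamily the primers were designed for, had 1.

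The windows of the LTRs on which the results turn are shown next, with CpG in capitals. Each is the last 57 bases of an IAPEY LTR in GRCm38, 5′ to 3′ on the LTR's strand, and the letters A to K name the LTRs throughout.
LTR A, chr1:147944130-147944186, minus strand: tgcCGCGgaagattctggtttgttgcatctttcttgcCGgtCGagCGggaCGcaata
LTR B, chr1:101093246-101093302, minus strand: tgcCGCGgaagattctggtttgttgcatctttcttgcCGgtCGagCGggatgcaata
LTR C, chr1:108911665-108911721, minus strand: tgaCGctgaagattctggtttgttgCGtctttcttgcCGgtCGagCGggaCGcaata
LTR D, chr1:27942334-27942390, minus strand: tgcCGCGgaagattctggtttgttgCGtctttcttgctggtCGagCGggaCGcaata
LTR H, chr1:33826603-33826659, plus strand: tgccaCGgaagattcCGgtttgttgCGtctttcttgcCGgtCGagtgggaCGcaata
LTR K, chr1:112440136-112440192, minus strand: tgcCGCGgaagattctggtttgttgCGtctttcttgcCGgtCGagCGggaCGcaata
LTRs F and G carry the same 57 bases as LTR A. The windows hold 5 to 7 CpG sites, and LTR K, with 7, has the commonest form. The last 300 bases of LTR A (chr1:147944130-147944429, minus strand) show how little of an LTR this is, since its window holds 6 of the 18 CpG sites printed.
End of LTR A: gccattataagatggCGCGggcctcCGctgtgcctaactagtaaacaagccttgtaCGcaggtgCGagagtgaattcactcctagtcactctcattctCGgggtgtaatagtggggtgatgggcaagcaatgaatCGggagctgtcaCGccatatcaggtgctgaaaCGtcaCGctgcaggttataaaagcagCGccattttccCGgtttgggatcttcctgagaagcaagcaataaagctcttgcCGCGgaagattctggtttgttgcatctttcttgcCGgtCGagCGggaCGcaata

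Nearly all calls of IAPEY-family LTRs came from this window. It held 99.8% of the members' 88051 calls in sperm and 98.8% of 42236 in tail, on the LTR's own strand. Cytosines of the opposite strand, which IAP-BS1 would reach at the 5′ end of an LTR, held 0.075% in sperm and 0.144% in tail. In 707 LTRs of the IAPLTR1 and IAPLTR2 subfamilies, for which the primers were designed, the window held 79.9% in sperm and 67.1% in tail, and the opposite strand 19.7% in sperm and 32.6% in tail. IAP-BS1 had a median of 7 mismatches in IAPEY LTRs and 0 in most IAPLTR subfamilies. No CpG of an IAPEY-family member had at least 10 calls on both strands. Of the 58 LTRs measured in both libraries, 53 in sperm and 51 in tail were covered in the window alone, so most levels below are those of 1 strand at the 3′ end of the LTR. In a solo IAPEY LTR (chr1:107213089-107213416) the level came mainly from the opposite strand, outside the window, and was 0.786 in sperm and 0.892 in tail. The members held 1635 CpG sites in the reference, a median of 19 per LTR, but a median of 4 positions per LTR was covered in sperm and 5 in tail.

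**Figure D1:**
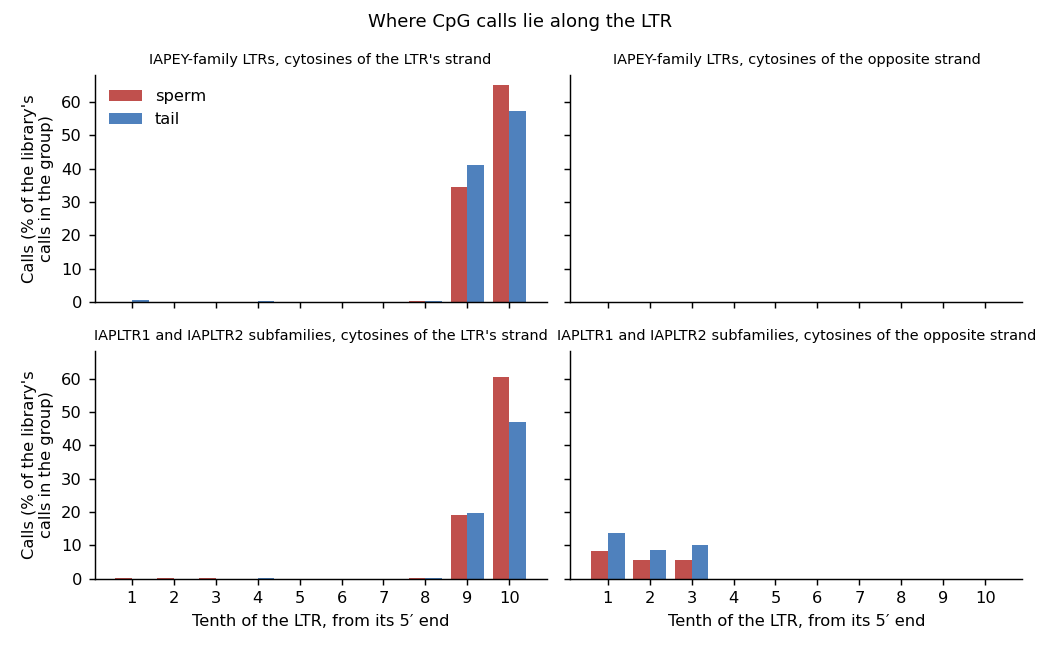
Share of CpG calls (percent of the library's calls in the group) in 10 equal parts of the LTR from its 5′ end, for sperm (red) and tail (blue), with IAPEY-family members above and IAPLTR1 and IAPLTR2 subfamilies below, and the LTR's strand left of the opposite strand. In IAPEY-family LTRs part 10, at the 3′ end, held 65.01% of calls in sperm and 57.4% in tail, part 9 held 34.7% in sperm and 41.3% in tail, and the opposite strand next to none.

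How well an LTR matched IAP-BS2 went with whether it was measured. Of 36 IAPEY-family LTRs with 3 or 4 mismatches, 29 were members, and of 46 with 5 or 6 mismatches 35 were. Of 167 with 7 or more, 27 were members. By subfamily, members were 49 of 65 IAPEY LTRs, 21 of 86 IAPEY2, 17 of 53 IAPEY3, 3 of 21 IAPEY3C, 1 of 16 IAPEY5 and 0 of 8 IAPEY4, whose median mismatches were 5 in IAPEY, 8 in IAPEY2, 9 in IAPEY3, 10 in IAPEY3C and 12 in IAPEY4 and IAPEY5. Members were 48 solo LTRs, 21 5′ LTRs and 22 3′ LTRs. Of the 91, 74 lay between genes, 15 in introns and 2 in exons. A search of GRCm38 with the LTR sequences named 233 of the 234 IAPEY-family rows of at least 250 bp as IAPEY family again.

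The sperm file held 95744413 calls at 754507 positions, of which 87.7% were methylated, and the tail file 55366653 calls at 959191 positions, of which 88.4% were methylated. Of the members' calls, 75.3% were methylated in sperm and 90.7% in tail. A member had a median of 101 calls in sperm and 76 in tail, with up to 14563 in sperm and 8200 in tail. In all, 58 members had at least 20 calls in both libraries, 23 in sperm alone and 10 in tail alone.

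The methylation level of an LTR is the mean, over its covered positions, of methylated calls divided by all calls (0 to 1). Over the 58 IAPEY-family LTRs measured in both libraries, the median level was 0.835 in sperm (quartiles 0.730 and 0.904) and 0.928 in tail (0.853 and 0.967). Of the 58 LTRs, 43 had less methylation in sperm than in tail. In sperm 6 levels were at or under 0.2, 14 lay between and 38 were above 0.8, whereas in tail 0 were low, 7 lay between and 51 were high. Low LTRs made up 10.3% of the 58 in sperm, with an exact 95% interval of 3.89 to 21.2. In tail the share was 0%, with an upper bound of 6.16. The other 707 LTRs had medians of 0.876 in sperm and 0.901 in tail, with 1 low LTR in sperm and 0 in tail.

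Calls of a difference needed an adjusted p under 0.05 by Fisher's exact test on summed calls, with Benjamini-Hochberg adjustment over all 765 LTRs tested, and a level difference of at least 0.2. Among the 58 IAPEY-family LTRs, 15 were lower in sperm (25.9%), against 5.62% of all LTRs tested, and 1 was lower in tail (1.72%), against 1.31% of all. Of the 707 LTRs of other subfamilies, 28 were lower in sperm (3.96%) while 9 were lower in tail (1.27%). The median difference, sperm minus tail, was −0.0864 in the IAPEY family and −0.027 over all LTRs tested. Since other subfamilies were also read at their 5′ ends, the comparison was repeated on the window alone. There 13 of 56 IAPEY-family LTRs were lower in sperm (23.2%), against 6.88% of all LTRs tested, and 0 were lower in tail, against 1.24%. On the same window 37 of 671 LTRs of other subfamilies were lower in sperm (5.51%).

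Within the family, IAPEY proper held most of the measured LTRs. The median of the 39 IAPEY LTRs was 0.826 in sperm and 0.926 in tail. Of the 39, 11 were called lower in sperm and none (0) the other way. All 6 low LTRs were IAPEY. The 8 IAPEY2 LTRs had medians of 0.830 in sperm and 0.920 in tail with 2 called lower in sperm, and their sperm levels reached down to 0.552. With at least 10 calls, 15 IAPEY2 LTRs had medians of 0.8125 in sperm and 0.792 in tail, so the direction of the IAPEY2 medians rests on the call minimum. The 10 IAPEY3 LTRs had medians of 0.894 in sperm and 0.892 in tail, with 2 called as lower in sperm and 1 the other way. Their medians turned to 0.901 in sperm and 0.9355 in tail with LTRs shortened by 20 bp at each end. With 8 and 10 LTRs, the order of IAPEY2 and IAPEY3 against IAPEY was not tested.

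The 6 IAPEY LTRs that were low in sperm were all on chromosome 1 between genes. Of all 91 members, 84 lay on chromosome 1 and 74 between genes, so this placing does not set the low LTRs apart. LTR A (5′ LTR, chr1:147944130-147944510, minus strand) had a level of 0.0249 in sperm from 1280 calls and 0.983 in tail from 1998 calls, with exact 95% intervals of the summed calls of 0.0172 to 0.0351 in sperm and 0.973 to 0.986 in tail. LTR B (5′ LTR, chr1:101093246-101093624, minus strand) had 0.0369 in sperm from 1187 calls and 0.816 in tail from 220 calls, with an adjusted p of 5.66e-144 by Fisher's exact test with Benjamini-Hochberg adjustment. LTR C (solo, chr1:108911665-108912020, minus strand) had 0.0476 in sperm from 81 calls and 0.898 in tail from 68 calls (adjusted p = 4.43e-28, Fisher's exact test, Benjamini-Hochberg). These 3 LTRs were near unmethylated in sperm and mostly methylated in tail, with intervals that do not overlap. The protein-coding genes nearest to them were Brinp3 (1041658 bp from LTR A), Cntnap5b (607304 bp from LTR B) and Cdh7 (1070411 bp from LTR C), the last of which encodes a cadherin, a cell adhesion protein.

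LTR D (solo, chr1:27942334-27942717, minus strand) had 0.148 in sperm from 549 calls and 0.728 in tail from 77 calls (adjusted p = 5.41e-23, Fisher's exact test, Benjamini-Hochberg). LTR F (solo, chr1:145937926-145938309, plus strand) had 0.181 in sperm from 213 calls and 0.892 in tail from 82 calls (adjusted p = 1.32e-30, Fisher's exact test, Benjamini-Hochberg). The tail level of LTR D was the lower of the pair, with an interval of 0.6 to 0.812 for the summed calls. LTR E (chr1:147943807-147943851, minus strand) is a 45 bp piece of a 3′ LTR that belongs to the same element as LTR A. Its mean level was 0.149 in sperm and 0.992 in tail, but its 36 sperm calls summed to 0.333 (0.186 to 0.510), so its place among the low LTRs depends on how positions are averaged. LTR E has no recognisable IAP-BS2 site (18 mismatches) and lies downstream of LTR A on the same strand, so it is not an independent case.

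Where both libraries gave 100 calls or more, the 5 largest called differences were those of LTRs A and B and of 3 LTRs that were not low. LTR G (5′ LTR, chr1:114211380-114211763, plus strand) had 0.355 in sperm from 101 calls and 0.984 in tail from 339 calls (adjusted p = 2.06e-44, Fisher's exact test, Benjamini-Hochberg). LTR H (solo, chr1:33826287-33826659, plus strand) had 0.403 in sperm from 12662 calls and 0.930 in tail from 5340 calls. LTR I (5′ LTR, chr1:141140181-141140495, plus strand) had 0.641 in sperm from 1778 calls and 0.954 in tail from 1057 calls (adjusted p = 1.34e-91, Fisher's exact test, Benjamini-Hochberg). All 3 lay between the low and high classes in sperm and were high in tail. LTR H was, of LTRs A to K, the closest to a protein-coding gene, 11692 bp from Zfp451, a zinc finger protein gene, and LTR I lay 528114 bp from Kcnt2, a potassium channel gene.

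The 3 LTRs with most calls were LTRs H, J and K. LTR J (solo, chr1:79355358-79355734, minus strand) had 0.914 in sperm from 14563 calls and 0.824 in tail from 8200 calls, so its level was higher in sperm by 0.0902. LTR K (3′ LTR, chr1:112440136-112440519, minus strand) had 0.812 in sperm from 6436 calls and 0.957 in tail from 2904 calls. The difference of LTR J was 0.0036 when 20 bp were left out at each end. Neither LTR passed the minimum difference of 0.2. Only 1 IAPEY-family LTR was called lower in tail, a solo IAPEY3 LTR (chr1:65606122-65606413) with 0.975 in sperm from 191 calls and 0.696 in tail from 56 calls (adjusted p = 0.0126, Fisher's exact test, Benjamini-Hochberg). Of its 6 sperm positions, 5 lay outside the window with 2 to 4 calls each, and the 1 position covered in both libraries had 0.849 in sperm and 0.696 in tail. This call did not remain when all calls were summed or when the level was taken over positions covered in both libraries.

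At single CpG positions, 226 members' positions had at least 10 calls in both libraries. Of these, 76 were called lower in sperm (33.6%), against 11.8% of all 107519 positions tested, and 7 lower in tail (3.10%), against 7.75% of all, by the same test and limits applied per position. The 76 positions lay in 28 LTRs. The median difference was −0.0864 over the members' positions and −0.0077 over all positions tested. In sperm 22 positions were at or under 0.2, 79 lay between and 125 were above 0.8, and in tail 0 were low, 28 lay between and 198 were high. The 22 low positions were in LTRs A, B, C and D and in 2 LTRs that were not low as a whole. Within the window alone, 72 of 221 IAPEY-family positions were lower in sperm (32.6%), compared with 371 of 3676 positions of other subfamilies (10.1%), and positions at or under 0.2 in sperm numbered 22 of 221 and 22 of 3676.

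LTRs A and B were low at every position measured. In LTR A the positions at 53, 51, 19, 15, 11 and 6 bases from the end had levels of 0.0091, 0.04, 0.0372, 0.0048, 0.0338 and 0.0244 in sperm, from 205 to 225 calls each, and 0.982, 0.960, 0.986, 0.993, 0.982 and 0.992 in tail, from 262 to 451 calls each. Every position of LTR A was called lower in sperm. In LTR B the 5 positions with at least 10 calls in both libraries ranged over 0.0216 to 0.05 in sperm and 0.581 to 0.906 in tail. In LTR C, 4 of the 5 positions with at least 10 calls in both libraries had no methylated call in sperm, among 10 to 18 calls. By the limit used for counts of 0, 3 counts of the total, this allows levels of up to 0.3 to 0.167. In the same LTR the position 19 bases from the end had 0.286, while the 5 tail levels were 0.813 to 1. LTR D ranged over 0.0641 to 0.333 in sperm and 0.333 to 1 in tail. Its position at 11 bases from the end, with 0.0928 in sperm and 0.333 in tail, was the only one of 26 such positions in the low LTRs that was not called. In LTR F the 6 positions ranged over 0.0286 to 0.297 in sperm, and the 2 with at least 10 calls in both libraries had 0.270 and 0.297 in sperm and 0.960 and 0.880 in tail. The 2 such positions of LTR E had 0.467 and 0.278 in sperm and 0.990 and 0.994 in tail, so LTRs E and F had no position at or under 0.2 among those tested.

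**Figure D2:**
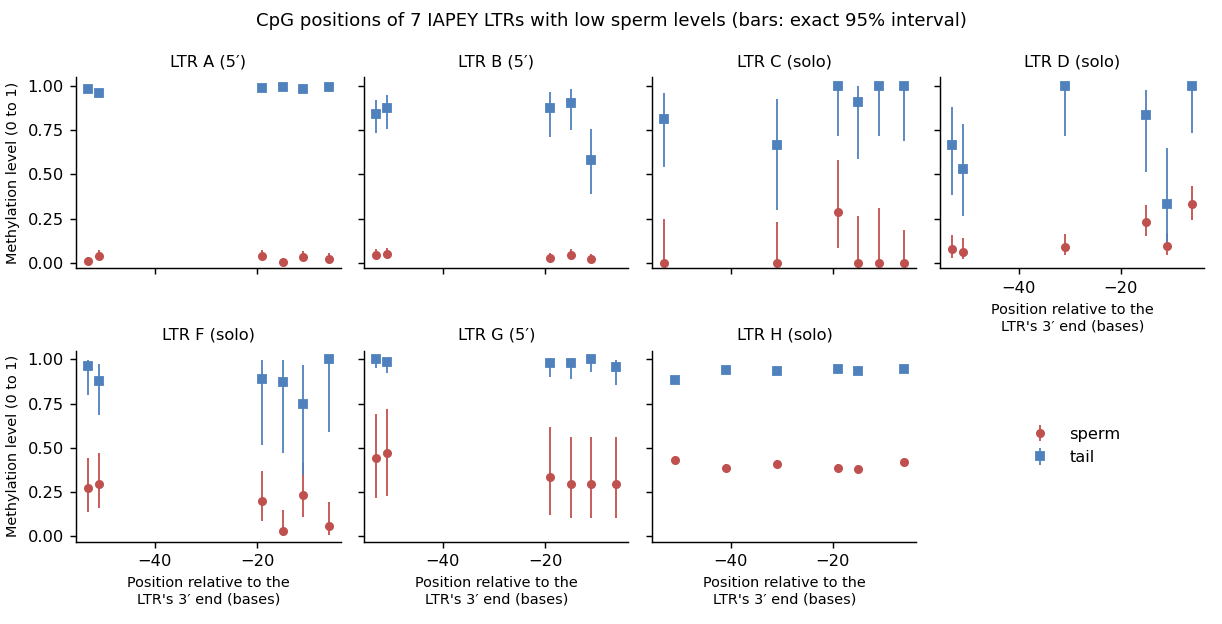
Methylation level (0 to 1) at each covered CpG position of 7 IAPEY LTRs, by position relative to the LTR's 3′ end in bases, in sperm (red circles) and tail (blue squares), with exact 95% intervals of counting error. Each sperm level lies below the tail level of the same position, and no sperm level of LTRs A, B, C, D and F is above 0.333.

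Outside the low LTRs, large differences at single positions ran both ways. In the 3′ partner of LTR G (chr1:114215133-114215516), the position at 31 bases from the end had 0 of 16 methylated calls in sperm, which allows a level of up to 0.188 (3 counts of the total), and 12 of 12 in tail, while the position at 15 bases had 12 of 12 in sperm and 4 of 10 in tail. The level of that LTR was 0.857 in sperm and 0.818 in tail. The largest single-position difference in the other direction was in a solo IAPEY LTR, at 53 bases from the end (chromosome 1, position 146406516), with 12 of 12 methylated calls in sperm and 5 of 18 in tail. These values rest on 10 to 18 calls in each library. The next 3 positions that were lower in tail had 1 in sperm and 0.526 in tail (solo IAPEY LTR, position 67259668), 0.936 in sperm and 0.557 in tail (solo IAPEY3 LTR, position 90977641) and 0.911 in sperm and 0.585 in tail (5′ IAPEY3 LTR, position 166598635), all on chromosome 1.

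In most LTRs the neighbouring CpG sites had like levels. Over 42 LTRs with at least 3 positions of 10 or more calls in both libraries, the median range between the highest and lowest position of an LTR was 0.177 in sperm and 0.149 in tail. The median SD within an LTR was 0.0811 in sperm and 0.0692 in tail. The SD between the means of these LTRs was 0.271 in sperm and 0.0707 in tail. In sperm the SD between LTR means exceeded the median SD within an LTR, and in tail these values were alike. The 2 measures differ, since a median SD gives little weight to uneven LTRs. The widest range within an LTR was 1 in sperm and 0.722 in tail. Positions of 1 LTR share reads, so they are not independent.

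The sperm median was below the tail median at each site of the window. In 39 table copies with a 57-base window, the 7 sites with CpG in most copies had sperm medians of 0.853, 0.774, 0.774, 0.824, 0.774, 0.704 and 0.770 at 53, 51, 31, 19, 15, 11 and 6 bases from the end. The tail medians of these sites were 0.959, 0.940, 0.985, 0.982, 0.934, 0.962 and 0.990. At each site, 6 to 10 of 17 to 24 copies tested were called lower in sperm. The sites at 15 and 53 bases from the end were the only ones with copies called lower in tail, 2 and 1.

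In sperm the median level of the 5′ LTRs of IAPEY-family elements was below that of the 3′ LTRs. The 16 5′ LTRs had medians of 0.744 in sperm and 0.957 in tail, with 15 lower in sperm than in tail and 9 called. The 16 3′ LTRs had medians of 0.860 in sperm and 0.920 in tail with 1 called, and the 26 solo LTRs 0.859 in sperm and 0.895 in tail with 5 called. Among the 6 low LTRs, 3 were solo, 2 were 5′ LTRs and 1 was the 3′ piece. The LTR types were compared as a description, since LTRs are not replicates. Reads from IAP-BS2 leave a 5′ LTR into the internal sequence and a 3′ LTR into the genomic flank. Pairs with more than 1 match were discarded. The paper holds flanking repeats, such as IAP internal sequences, to be the likely reason for its low mapping rate. The part of this in the 5′ and 3′ levels was not tested.

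The LTRs of an intact element share the age of the insertion, though the study's list also pairs LTRs of different subfamilies. In sperm the 5′ LTR was below the 3′ LTR in 12 of 14 IAPEY-family elements measured at both ends, with a median difference, 5′ minus 3′, of −0.0917. In tail it was below in 5 of 10, with a median of −0.0001. In LTR B and its 3′ partner (chr1:101089088-101089466), whose windows are identical, the sperm levels were 0.0369 in the 5′ LTR and 0.818 in the 3′ LTR (exact 95% intervals of the summed calls 0.0271 to 0.0494 and 0.733 to 0.891), and the tail levels 0.816 and 0.850. LTR G and its partner had 0.355 in the 5′ LTR and 0.857 in the 3′ LTR in sperm, and 0.984 and 0.818 in tail. In the element of LTR K, the 5′ LTR had 0.687 and LTR K 0.812 in sperm, and 0.959 and 0.957 in tail.

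The pairs had exceptions. An IAPEY 5′ LTR had 0.937 in sperm, and its 3′ partner, an IAPEY2 LTR, 0.750 from 20 calls. In an element with an IAPEY3 5′ LTR and an IAPEY2 3′ LTR (chr1:139784574-139784871), the 5′ LTR had 0.539 and the 3′ LTR had no methylated call among 40, which allows up to 0.075 (3 counts of the total). The pair of LTRs A and E is counted among the 14, with the limits given for LTR E. These LTRs lie close together, with LTR E up to base 147943851 and LTR A from base 147944130, so little internal sequence lies between them. With LTRs shortened by 20 bp at each end, which removes the sites nearest to the 3′ end, the 5′ LTR was lower in 6 of 10 pairs in sperm and 1 of 8 in tail. With at least 100 calls it was lower in 4 of 4 in sperm and 3 of 5 in tail, and with summed calls in 12 of 14 in sperm and 3 of 10 in tail. Over positions covered in both libraries it was lower in 10 of 14 in sperm and 5 of 10 in tail. In other subfamilies the 5′ LTR was below in 134 of 233 elements in sperm (median −0.0156), and 152 of 218 when only the window was used (median −0.0482), against 11 of 13 IAPEY-family elements (median −0.0774).

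Same-strand pairs of IAPEY-family LTRs elsewhere on the autosomes gave values that the rows used did not hold. These LTRs were found by sequence, and pairs were taken where 2 copies lay 2.5 to 8 kb apart, which in the rows used picked 10 pairs, all of them the LTRs of 1 element. Of 42 such pairs measured in sperm, the upstream LTR was lower in 31 (median difference −0.0958) and lower by at least 0.2 in 10, with 1 pair the other way. Of 40 measured in tail it was lower in 22 (median −0.0048). Where both windows were identical, it was lower in 11 of 15 pairs in sperm (median −0.0965) and 11 of 16 in tail (median −0.028). The sperm medians were 0.818 over the upstream LTRs and 0.875 over the downstream LTRs.

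**Figure D3:**
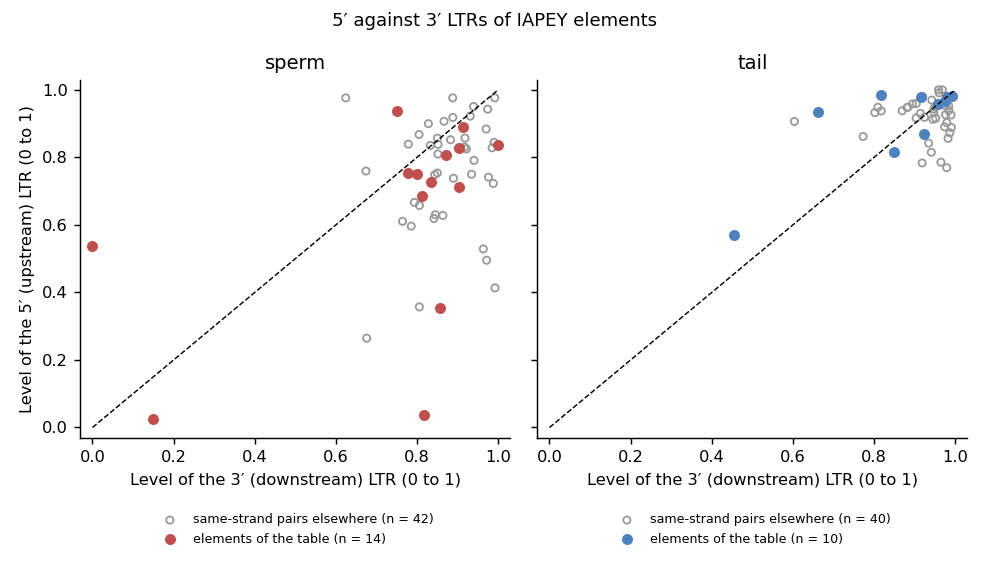
Methylation level (0 to 1) of the 5′ or upstream LTR against that of the 3′ or downstream LTR in sperm (left) and tail (right), for elements of the table (filled) and same-strand pairs elsewhere on the autosomes (open), with the line of equal levels. In sperm 12 of 14 and 31 of 42 points lie below the line, and in tail 5 of 10 and 22 of 40.

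Copies with the same window also differed from each other in sperm. The window of LTR K, with 7 CpG sites, was carried by 72 measured IAPEY copies on the autosomes. Their levels ranged over 0.0808 to 0.992 in sperm (median 0.834, quartiles 0.634 and 0.918) and 0.783 to 1 in tail (median 0.951, quartiles 0.915 and 0.966). Of the 72 copies, 59 were lower in sperm than in tail, and 27 by at least 0.2. Of these copies, 67 lie outside the rows used, with a sperm median of 0.829 and a tail median of 0.949. In all, 293 measured copies carried 170 distinct windows, and 5 windows were found in at least 5 copies.

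**Figure D4:**
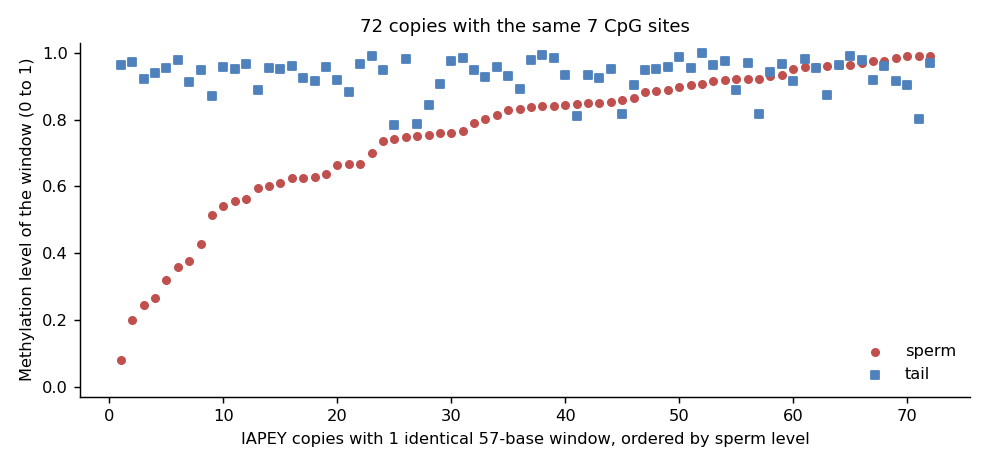
Methylation level (0 to 1) of the window in 72 IAPEY copies that carry the same 57 bases, ordered by sperm level, in sperm (red circles) and tail (blue squares). The sperm levels run from 0.0808 to 0.992, while the tail levels lie between 0.783 and 1.

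The windows of the low LTRs were rarer among measured copies. LTRs A, F and G were the 3 measured copies with theirs, with sperm levels of 0.0249, 0.181 and 0.355 and tail levels of 0.983, 0.892 and 0.984. The window of LTR B was measured in LTR B and its 3′ partner, and that of LTR C in LTR C. The window of LTR D was measured in 4 copies, of which the other 3 had sperm levels of 0.403, 0.833 and 0.879. The window of LTR H was measured in 7 copies, with sperm levels of 0.403 to 0.986 and tail levels of 0.613 to 0.984. The windows of LTRs B, D and K were thus each low in 1 measured copy and high in others in sperm, whereas that of LTRs A, F and G had no high copy and that of LTR H no low copy.

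The windows of LTRs A, B, F and G lack the CpG at 31 bases from the end, a site compared after its values were seen. Table copies without a CpG there had a sperm median of 0.538 (n = 8, 3 low) and copies with one 0.839 (n = 23, 2 low), with tail medians of 0.903 and 0.937. The 3 low copies without it are LTRs A, B and F themselves. Outside the rows used, the sperm medians were 0.757 without the CpG (n = 45, 3 low) and 0.837 with it (n = 217, 8 low), and the tail medians 0.906 and 0.935. At 41 bases from the end, the sperm medians outside the rows used were 0.793 without a CpG (n = 191, 10 low) and 0.893 with one (n = 71, 1 low). At 53 bases from the end the medians outside the rows used ran the other way, with 0.879 without a CpG (n = 84, 2 low) and 0.796 with one (n = 178, 9 low). Table copies differed in direction at that site, with 0.782 without a CpG (n = 8, 0 low) and 0.826 with one (n = 23, 5 low). At the other sites compared outside the rows used, the sperm median was lower without the CpG at 15 and 19 bases from the end. It was lower with the CpG at 6, 11 and 51 bases. No site was tested.

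Elsewhere on the autosomes, 499 IAPEY-family copies outside the rows used had at least 20 window calls in both libraries. Their window medians were 0.859 in sperm and 0.923 in tail, and 17 were low in sperm (3.41%) and 0 in tail. The median of the 300 IAPEY copies among them was 0.828 in sperm and 0.930 in tail, and 14 were low in sperm (4.67%). The 122 IAPEY2 copies had 0.893 in sperm and 0.8995 in tail with 3 low in sperm, and the 68 IAPEY3 copies 0.913 in sperm and 0.923 in tail with 0 low. The 5835 copies of other subfamilies had 0.893 in sperm and 0.926 in tail, with 10 low in sperm (0.171%) and 11 low in tail. On the same window the 37 IAPEY LTRs of the rows used had 0.833 in sperm and 0.923 in tail, with 5 low in sperm (13.5%) and 0 in tail.

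Depth and sperm level both differed between IAPEY copies with 3 and with 5 primer mismatches. Outside the rows used, 87 copies with 3 mismatches had a sperm median of 0.891 with 1 low copy and a median of 2906 sperm calls. The 145 copies with 5 mismatches had 0.760 with 10 low copies and a median of 485 sperm calls. Between them, the 44 copies with 4 mismatches had 0.879 with 2 low copies and a median of 457.5 sperm calls. The 23 copies with 6 mismatches had 0.757 with 3 low copies and a median of 82 sperm calls. The tail medians were 0.917 with 3 mismatches and 0.949 with 5. In the rows used, the sperm medians were 0.883 (n = 8) and 0.812 (n = 24). Copies with equal mismatches share ancestry as well as primer match. The part of ancestry, primer match or depth in the levels was not tested.

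Across the 58 LTRs measured in both libraries, levels were weakly related to features of the LTR, as a description only. Pearson's r between the sperm level and the divergence of the LTR was 0.21 (Spearman's rho 0.20), and that between the tail level and divergence −0.24 (rho −0.22). For the sperm level, r was −0.10 with the number of CpG sites (rho −0.12) and −0.02 with the log10 number of calls (rho −0.04). With mismatches to IAP-BS2, r was −0.24 and rho −0.17, with LTR E and its 18 mismatches among the 58. The LTRs share libraries, and related copies share sequence.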

How the data were processed

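TEPBAT was applied to sperm DNA and tail DNA of 1 mouse. The authors trimmed the reads, mapped the pairs to mm10 with Bismark (version not given in the sources used here) and kept pairs with 1 match. The deposited files hold, for each cytosine of a CpG, counts of calls read as methylated and as unmethylated. They also hold a deposited percent methylation, which was left aside. All 1485057 positions were CpG in GRCm38. The sperm file held 95744413 calls and the tail file 55366653, and binomial intervals are exact (Clopper-Pearson, 95%). For single LTRs or positions with a count of 0, the limit given is 3 counts of the total.

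LTR rows came from the study's list, of which 1997 of 28601 rows were used. Levels are means over covered positions, for LTRs with at least 20 calls. Copies on all autosomes were found with blastn 2.17.0 (at least 250 bp and a share of 0.8 of the query, up to 12 queries per subfamily). Primer sites were the ungapped matches with fewest mismatches. Positions with at least 10 calls in both libraries, and LTRs with at least 20, were tested with a two-sided Fisher's exact test, adjusted by Benjamini-Hochberg over all positions or LTRs, with a threshold of 0.05 and a minimum difference of 0.2. The tests were tried on simulated data first. Python 3.11.15, pandas 2.3.3, numpy 2.4.6, scipy 1.17.1 and matplotlib 3.10.9 were used.

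The LTRs named were those at or under 0.2 in either library, the 5 largest called differences either way where both libraries gave 100 calls or more, and the 3 with most calls. Positions named were those of the low LTRs and the 5 largest called differences in each direction. Any other LTR was named with its values known. The members, lists and rules were chosen with earlier results of these data known. Alternatives were other call minimums, differences and class limits, summed calls, other sets of positions and shortened LTRs.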

Additional observations from a re-analysis of the deposited data

How the results depend on the processing

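The median levels of the family lay between 0.830 and 0.853 in sperm and between 0.915 and 0.9501 in tail under the alternatives run, which kept 36 to 68 LTRs or took 564 copies from all autosomes. The sperm median of the family stayed below the tail median in each, whereas those of IAPEY2 and IAPEY3 changed order as given above. Of the named LTRs' differences, 93 of 94 values under alternatives kept their direction and their side of the threshold. LTR K passed it with a minimum difference of 0.1. Only summed calls, shortened LTRs and positions of at least 5 calls changed any of these differences, so most of the 94 values could hardly move. Most of these LTRs were also named for a low level or a large difference. Other call minimums and shortened LTRs change how many positions or LTRs enter. With at least 5, 20 and 50 calls, 11, 4 and 4 positions were lower in tail, and with at least 50 calls 38 of 119 were lower in sperm. With a minimum difference of 0.1, 16 positions and 4 LTRs were lower in tail and 27 LTRs lower in sperm, and with 0.3, 9 LTRs were lower in sperm and 0 in tail. With LTRs shortened by 20 bp at each end, 37 of 113 positions were lower in sperm and 3 in tail, and 2 LTRs were lower in tail. With at least 10 calls, 3 LTRs were lower in tail, 1 LTR was low and 15 lay between in tail. With at least 100 calls, 9 of 36 LTRs were lower in sperm and 0 in tail, 2 were low and 23 high in sperm, and 1 lay between in tail. No LTR (0) was lower in tail with summed calls, with positions of at least 5 calls, with positions covered in both libraries or with the window alone, the last chosen after seeing the data. With class limits of 0.1 and 0.9, 3 LTRs were low, 38 between and 17 high in sperm, and 23 between in tail. With 0.3 and 0.7, 7 lay between in sperm and 2 in tail. With at least 5 calls on each strand, 1 CpG pair had both strands in tail. The cause of the moves was not tested. No paired analysis was possible because there was 1 library per tissue.

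Depth limits the values: with 20 calls a count of 0 leaves wide limits. IAPEY-family LTRs with poor primer matches were mostly not measured, and in most measured LTRs only the 3′ end of 1 strand was read.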

Other observations

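Some IAPEY-family LTRs were low in sperm but had too few tail calls to be compared, and they fall outside the rule for named LTRs. A solo IAPEY LTR in an intron of the gene 4930533P14Rik (chr1:96640754-96641084, plus strand) had no methylated call among 21 in sperm, which allows a level of up to 0.143 (3 counts of the total), and 1 of 2 in tail. The IAPEY2 3′ LTR at chr1:139784574-139784871 had none among 40 in sperm and 4 of 4 in tail.

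The 5′ LTR at chr1:31734301-31734680 was uneven. Its level was 0.727 in sperm and 0.978 in tail, but its 152 sperm calls summed to an exact 95% interval of 0.431 to 0.595. Its 3′ partner had 0.833 in sperm and 0.9804 in tail.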
